A study of Mus musculus with 28 samples.

Results

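The genes described here are 10 imprinted genes that are active in brain: Peg3, Peg10, Ndn, Magel2, Snrpn, Dlk1, Meg3, Nnat, Cdkn1c and Nap1l5. Their probes were found by matching the transcript accession of each array probe to a RefSeq gene symbol, which gave 19 probes for the 10 genes, of 55681 probes and 20660 named symbols on the array. For a gene with several probes, the brightest on average was used. The levels come from Transcriptome Tomography of the mouse brain, in which a frozen brain is cut along 1 body axis and runs of consecutive sections are pooled into fractions. The brains were those of 3 male C57BL/6J mice aged 3 weeks, with no treatment or altered allele named in the labels, and each mouse gave 1 plane: 12 coronal fractions from 1 mouse, 6 horizontal fractions from another and 10 sagittal fractions from another. Each fraction was measured on 1 array, so no position has a replicate, and mouse and plane cannot be told apart. The last coronal fraction holds a further fraction pooled into it.

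An imprinted gene is transcribed mainly from the copy inherited from 1 parent, because the parental copies carry different DNA methylation at a control region laid down in the germ line. Such genes lie in clusters, and many of them act on growth, feeding, body temperature and maternal behaviour, in which the hypothalamus has a central part. Of the 10 genes, 8 are known to be transcribed from the paternal copy and 2, Meg3 and Cdkn1c, from the maternal copy. The arrays measure total transcript and do not separate the parental copies. A lower level in a fraction can mean fewer cells that carry the transcript or less transcript per cell, and these cannot be told apart in pooled tissue.

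On mouse build GRCm38.p6, the Prader-Willi cluster holds Ndn (chr7:62348277-62349928), Magel2 (chr7:62376979-62381640) and Snrpn (chr7:59982495-60450177). Peg3 lies on the same chromosome at chr7:6703892-6730462 and Cdkn1c at chr7:143458339-143461059. The Dlk1-Meg3 cluster holds Dlk1 (chr12:109452485-109463336) and the non-coding RNA gene Meg3 (chr12:109540996-109571729). Peg10 (chr6:4747306-4760517), Nap1l5 (chr6:58905233-58907126) and Nnat (chr2:157560078-157562525) belong to separate clusters. Meg3 is annotated as a long non-coding RNA and the other 9 as protein-coding.

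Promoter windows are shown for 3 pairs of neighbours whose profiles are compared in the results: Peg3 with Usp29, a deubiquitinase gene transcribed away from it, Ndn with Magel2, and Dlk1 with Meg3. Each window runs from 250 bases before to 50 bases after a start site taken from RefSeq on GRCm38.p6 and is read 5′ to 3′ on the strand of its gene. For Ndn, Magel2 and Meg3 this site is the outer end of the gene as given above, while for Peg3 it lies 43 bases and for Dlk1 338 bases inside the gene, so that the Dlk1 window is wholly within it. RefSeq windows were matched for 8 of the 10 genes. Capitals mark TGACGTCA, the cyclic AMP response element, and CGCATGCG, the core of the NRF1 motif, both of which read the same on either strand.

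The Peg3 window is chr7:6730370-6730669 on the minus strand and the Usp29 window is chr7:6730333-6730632 on the plus strand, so that 263 bases are shared.
Peg3: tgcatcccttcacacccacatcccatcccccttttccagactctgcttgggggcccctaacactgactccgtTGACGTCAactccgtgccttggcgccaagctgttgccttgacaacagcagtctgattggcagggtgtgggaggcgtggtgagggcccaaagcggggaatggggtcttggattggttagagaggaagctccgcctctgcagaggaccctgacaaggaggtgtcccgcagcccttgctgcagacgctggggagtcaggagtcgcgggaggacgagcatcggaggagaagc
Usp29: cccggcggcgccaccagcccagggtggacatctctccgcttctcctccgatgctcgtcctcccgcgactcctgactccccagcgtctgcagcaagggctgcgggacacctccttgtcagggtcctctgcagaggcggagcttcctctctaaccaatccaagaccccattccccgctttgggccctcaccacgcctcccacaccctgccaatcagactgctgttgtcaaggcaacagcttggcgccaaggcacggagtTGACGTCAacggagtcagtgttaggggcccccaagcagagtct

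The Ndn window is chr7:62348027-62348326 and the Magel2 window is chr7:62376729-62377028, both on the plus strand.
Ndn: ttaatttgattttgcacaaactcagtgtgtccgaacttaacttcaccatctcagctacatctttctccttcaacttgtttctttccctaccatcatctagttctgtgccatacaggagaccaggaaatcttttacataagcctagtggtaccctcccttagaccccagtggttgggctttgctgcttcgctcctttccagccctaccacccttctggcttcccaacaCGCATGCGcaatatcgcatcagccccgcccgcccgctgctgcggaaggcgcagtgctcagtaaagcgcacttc
Magel2: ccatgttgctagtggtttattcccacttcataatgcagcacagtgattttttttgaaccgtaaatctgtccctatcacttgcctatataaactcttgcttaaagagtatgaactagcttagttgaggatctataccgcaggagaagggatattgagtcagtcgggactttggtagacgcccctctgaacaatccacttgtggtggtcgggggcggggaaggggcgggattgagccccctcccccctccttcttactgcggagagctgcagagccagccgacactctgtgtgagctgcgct

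The Dlk1 window is chr12:109452573-109452872 and the Meg3 window is chr12:109540746-109541045, both on the plus strand.
Dlk1: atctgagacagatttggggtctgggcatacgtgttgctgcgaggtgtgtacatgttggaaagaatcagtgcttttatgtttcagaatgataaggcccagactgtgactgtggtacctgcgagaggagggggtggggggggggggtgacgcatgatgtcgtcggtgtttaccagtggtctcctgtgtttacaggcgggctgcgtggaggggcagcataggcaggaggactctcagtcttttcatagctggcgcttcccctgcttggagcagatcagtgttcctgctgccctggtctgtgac
Meg3: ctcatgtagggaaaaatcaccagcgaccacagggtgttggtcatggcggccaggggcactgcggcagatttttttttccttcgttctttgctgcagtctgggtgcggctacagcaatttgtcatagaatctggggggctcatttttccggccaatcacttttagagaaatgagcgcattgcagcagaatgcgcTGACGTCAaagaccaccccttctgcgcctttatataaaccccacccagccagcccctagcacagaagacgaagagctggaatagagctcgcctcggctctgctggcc

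The letters TGACGTCA occur in the Peg3, Usp29 and Meg3 windows above and in 1.79% of 32851 RefSeq promoter windows of the same length. In Peg3 and Usp29 they are the same stretch of DNA read from opposite strands. The letters CGCATGCG occur in the windows of Ndn, Nnat and Snrpn and in 1.87% of all windows. The letters AAGATGG, the core of the YY1 motif, were searched on both strands and occur in 6.34% of all windows and in none of the windows of these genes. The 6 printed windows hold 9 to 17 CpG pairs, against a median of 7 and quartiles of 3 and 20 over all promoter windows. A match is a description of the letters in these windows and not evidence of a bound factor.

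Levels below are processed signals on a log2 scale, expressed relative to the 75th percentile of their array, so that 0 lies at that percentile, and levels are compared between fractions for 1 probe and never between probes. The 75th percentile lay between 135 and 574 units of signal, and 24822 to 34240 probes were well above background per array. Sagittal fractions 1 and 9 stood apart, with the lowest 75th percentiles (135 and 176). Their repeated spots also varied most (median SD of 0.0847 and 0.0855 log2). Sagittal fraction 1 held the lowest sagittal level of Peg3, Magel2, Dlk1 and Nap1l5. The arrays lie on 4 slides: coronal fractions 1 and 2 share a slide with the whole horizontal series, coronal fractions 3 to 10 have a slide of their own, coronal fractions 11 and 12 share one with sagittal fractions 5 to 10, and sagittal fractions 1 to 4 have another. Marker lists placed the axes. Hindbrain Hox genes had their highest mean in coronal fraction 1 and olfactory bulb genes in coronal fraction 12, and the hypothalamus list had its highest mean in horizontal fraction 6. The chosen probes of 9 of the 10 genes were well above background on all 28 arrays. The exception was Peg10, whose probe was well above background on 10 arrays, in 3 coronal, 2 horizontal and 5 sagittal fractions.

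**Figure D1:**
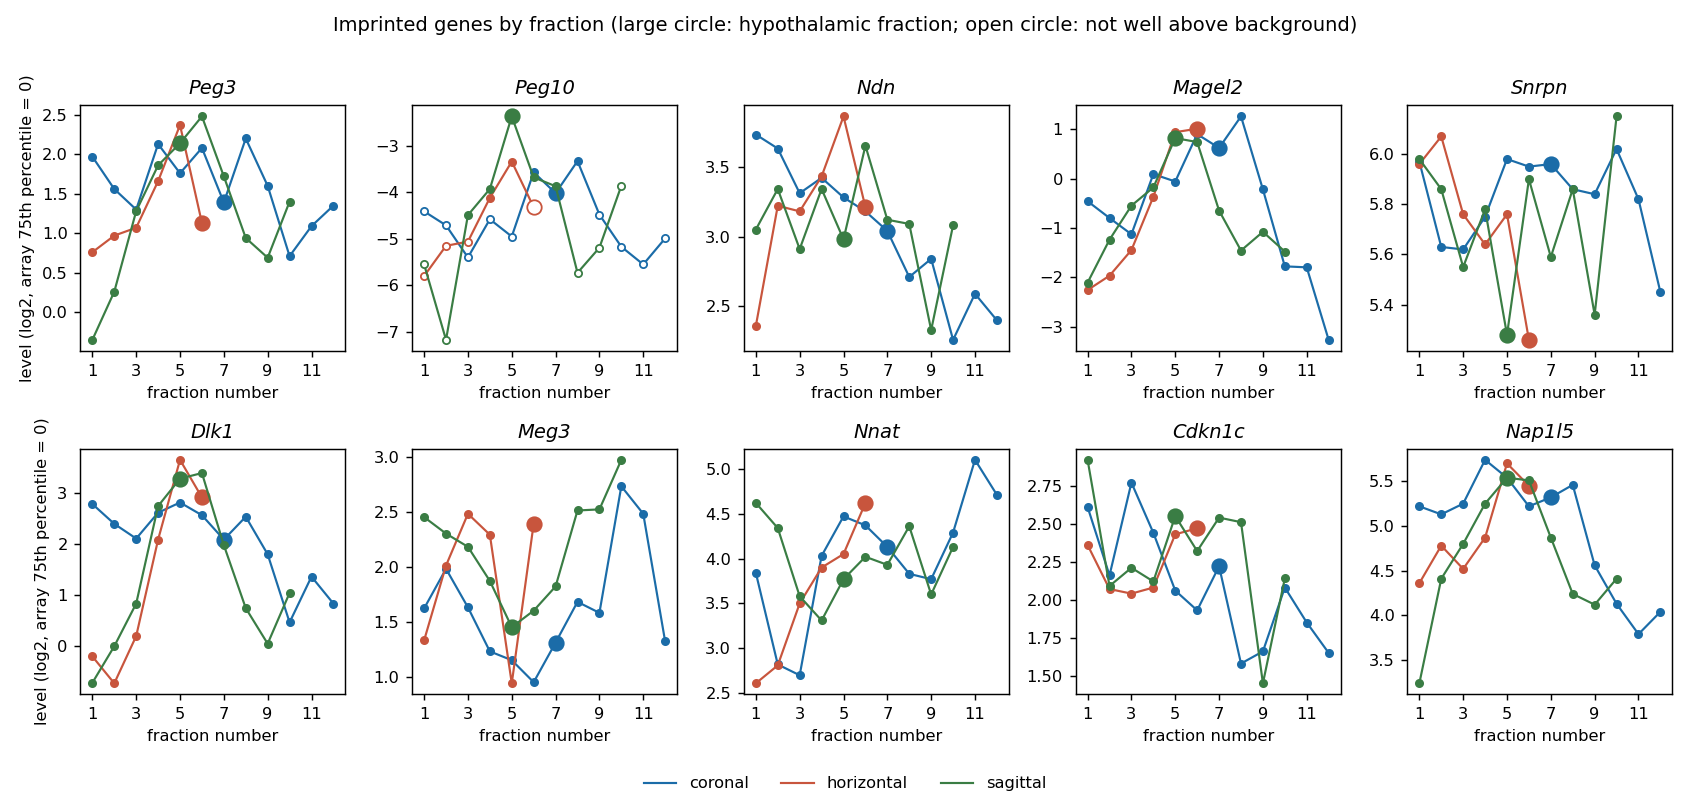
Level of each of the 10 genes (vertical axis, log2 relative to the 75th percentile of the array) against fraction number (horizontal axis) in the coronal, horizontal and sagittal series, with 1 array per point. Magel2 peaks at coronal fraction 8, horizontal fraction 6 and sagittal fraction 5, while Snrpn stays within 0.87 log2 in every series.

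The first comparison asked whether a gene varied smoothly with position along each series. The test was the limma F-test of a spline of the fraction number, with p-values adjusted over all 32364 tested probes. Of the 10 genes, 4 passed along the coronal series (Ndn, Magel2, Dlk1 and Nap1l5), where 33.7% of all tested probes passed. Along the horizontal series 2 passed (Magel2 and Nnat), against 15.8% of all probes. Along the sagittal series 5 passed (Peg3, Magel2, Dlk1, Meg3 and Nap1l5), against 14.7%. The coronal and horizontal counts are close to these shares. Dim probes are part of them. Of the 21524 probes well above background in every fraction, 46.1% passed coronally, 23.7% horizontally and 25.3% sagittally. These probes include those of 9 of the 10 genes, of which 5, 3 and 5 passed. Magel2 passed in all 3 series. The median fitted range of the 10 genes was 1.48 log2 coronally, 1.17 horizontally and 1.76 sagittally, beside 0.90, 0.74 and 1.06 over all tested probes.

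Slides and single arrays bear on these counts. The 4 coronal calls held when each fraction was left out in turn, but with slide as a term in the model none of the 10 genes and 0.745% of all probes passed. The fitted coronal ranges in that model were 1.55 for Ndn, 6.47 for Magel2, 3.81 for Dlk1 and 1.92 for Nap1l5. Without the term they were 1.29, 4.15, 1.93 and 1.80. Those of Ndn, Magel2 and Dlk1 in the slide model exceed the whole observed coronal ranges of 1.47, 4.53 and 2.36 log2. Slide and position share the series in that fit, so its ranges do not measure the size of a trend. Within the 8 fractions of slide 2 the calls were Magel2 (adjusted p = 0.0338) and Nnat (adjusted p = 0.0197), where 12.9% of all probes passed. The horizontal count ranged from 0 to 4 with 1 fraction left out. It was 4 without fraction 6, where 4.13% of all probes passed and Peg3, Peg10 and Dlk1 each lay just under the threshold (adjusted p = 0.0478). It was 0 without fraction 3 or fraction 4, where no probe of the 32364 passed (10053 and 7679 at an unadjusted p under 0.05). The sagittal count ranged from 0 to 6 and was 0 without fraction 1, where again no probe passed (5955 at an unadjusted p under 0.05). The share of all probes past the sagittal threshold was 38.8% without fraction 9 and 47.1% without fraction 10, where 6 of the 10 genes passed in each, and 44.2% with normexp background correction, where 5 did, so the sagittal count stands closer to the share of all probes in those fits. With slide as a term 3 sagittal calls were made, for Magel2, Meg3 and Nap1l5, beside 7.79% of all probes. Since the slides follow position along the axis, slide and position cannot be fully told apart in either series.

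Magel2 encodes a MAGE-family protein that takes part in endosomal protein recycling, and its loss in mice disturbs feeding and circadian activity. Its coronal level was lowest at -3.27, had a median of -0.34 and was highest at 1.26, in fraction 8, a 23.2-fold span. That span rests on fraction 12, since the next lowest level was -1.80 and the span without fraction 12 was 8.33-fold, and the fitted coronal range of 4.15 was 2.91 with normexp background correction. The level was high in fractions 6 to 8 and lowest at the olfactory end. Its horizontal levels were -2.26, -1.97, -1.45, -0.37, 0.94 and 1.01 in fractions 1 to 6, a 9.66-fold span. In the sagittal series the lowest level was -2.11, the median -0.86 and the highest 0.82, a 7.64-fold span, or 4.91-fold without its lowest fraction. Both fractions at the middle of that series were above all others, and levels were lower toward both sides. The spline tests gave adjusted p-values of 0.00198, 0.0209 and 0.0317 for the coronal, horizontal and sagittal series. The horizontal call was lost without fraction 3 or 4 (adjusted p from 0.0254 to 0.0686 over the 6 fits), and the sagittal call without fraction 1, 2, 5, 6 or 7 (0.0227 to 0.131 over the 10 fits). With slide as a term the coronal call was lost (adjusted p = 0.0759), in a fit whose range of 6.47 exceeds the observed 4.53. The horizontal call was lost with 1 spline degree of freedom fewer (0.077, range 3.74). Under scaling by the array median the sagittal call was lost (0.0525, range 3.14, beside 2.62 in the main fit).

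Ndn encodes necdin, a related MAGE-family protein of postmitotic neurons that restrains cell division. Its gene lies 27050 bases from Magel2 and is read from the same strand, as in the windows printed above. The coronal profile had a lowest level of 2.26, a median of 3.11 and a highest of 3.73. Fraction 1, at the hindbrain end, was the highest and fraction 10 the lowest, and the trend passed the test with a fitted range of 1.29 (adjusted p = 0.00197). Horizontal levels ranged from 2.36 in fraction 1 to 3.86 in fraction 5 with a median of 3.22, and sagittal levels from 2.33 to 3.65 with a median of 3.08. Neither of these trends passed (adjusted p = 0.114 and 0.72), although the horizontal one did under scaling by the array median (adjusted p = 0.0218, range 1.78) and with normexp correction (0.0431, range 1.21). The coronal call was lost with slide as a term (0.11) and within fractions 3 to 10 alone (0.0503). Over the 28 fractions, each series set to a mean of 0, the Pearson correlation of Ndn with Magel2 was 0.479, and it was 0.429 coronally, 0.707 horizontally and 0.322 sagittally.

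Snrpn encodes the spliceosomal protein SmN of neurons. Its observed range was the smallest of the 10 genes in the coronal and sagittal series. Coronal levels lay between 5.45 and 6.02 with a median of 5.85, horizontal levels between 5.26 and 6.07 with a median of 5.76, and sagittal levels between 5.28 and 6.15 with a median of 5.82. These are spans of 1.48-fold, 1.76-fold and 1.83-fold. No trend of Snrpn passed (adjusted p = 0.328, 0.17 and 0.701). Under scaling by the array median the horizontal trend passed (adjusted p = 0.0224), with a fitted range of 1.57 in place of 0.66. Snrpn has 3 probes. A probe for another transcript, which correlated at 0.602 with the one used, passed along the coronal series (adjusted p = 0.024) over a range of 0.74.

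Dlk1 encodes a membrane protein of the Notch ligand family that is known from preadipocytes, the pituitary and dopamine neurons of the midbrain. Its horizontal levels were -0.21, -0.74, 0.19, 2.09, 3.66 and 2.92 in fractions 1 to 6, a 21.2-fold span, or 12.7-fold without fraction 5. The 3 ventral fractions were all above the 3 dorsal ones, with the highest level in fraction 5, although the trend did not pass (adjusted p = 0.0622). It passed under scaling by the array median (0.0133), quantile normalization (0.0485), normexp correction (0.0194), the filter for probes well above background in every fraction (0.0246) and without fraction 6 (0.0478). In the sagittal series the lowest level was -0.73, the median 0.93 and the highest 3.40, in fraction 6, a 17.5-fold span, or 10.6-fold without the lowest fraction. That trend passed with a fitted range of 4.10 (adjusted p = 0.0343), but not without fraction 1, 2, 4, 5, 6 or 7 (0.00564 to 0.107 over the 10 fits). It was also lost under scaling by the array median (0.0605), with quantile normalization (0.0541), with slide as a term (0.0526) and without fractions 1 and 9 together (0.0662). The fitted ranges in these 4 fits were 4.62, 4.11, 3.43 and 3.59. Coronal levels ran from 0.46 in fraction 10 to 2.82 in fraction 5 with a median of 2.26, and that trend passed (adjusted p = 0.0172), but not with slide as a term (0.13) or within fractions 3 to 10 alone (0.0556). A second Dlk1 probe correlated at 0.993 with the first, passed coronally (adjusted p = 0.0285) and did not pass sagittally (0.0614).

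Meg3, the maternally transcribed non-coding RNA 77659 bases from Dlk1, ran the other way in the sagittal series. Its sagittal levels had a lowest value of 1.45 in fraction 5, a median of 2.24 and a highest of 2.97 in fraction 10. The middle of the series was low and both sides were high, with a fitted range of 1.35 (adjusted p = 0.036). This call was lost without any 1 of fractions 1 to 7 (adjusted p from 0.0149 to 0.122 over the 10 fits). Under scaling by the array median it was lost too (0.765), and the fitted range fell to 0.59. It was also lost with the 2 other Meg3 probes (0.34 and 0.112), whose correlations with the chosen probe were 0.732 and 0.87. Coronal levels lay between 0.95 and 2.73 with a median of 1.60, and horizontal levels between 0.94 and 2.48 with a median of 2.15. Neither of those trends passed (adjusted p = 0.23 and 0.781), although the coronal one did without fraction 12 (0.0203). The correlation of Meg3 with Dlk1 was -0.508 over 28 fractions, and -0.608, -0.201 and -0.787 in the coronal, horizontal and sagittal series.

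Peg3 encodes a zinc-finger transcription factor with a part in maternal care and growth. Its sagittal levels had a lowest value of -0.35 in fraction 1, a median of 1.34 and a highest of 2.48 in fraction 6. Fractions 5 and 6 were the highest, and the trend passed with a fitted range of 2.67 (adjusted p = 0.0236). It did not pass without fraction 1, 4, 5 or 7 (0.00518 to 0.131 over the 10 fits). It was also lost under scaling by the array median (0.10, range 3.19), with slide as a term (0.0589, range 2.26) and without fractions 1 and 9 together (0.0787, range 2.04). Coronal levels lay between 0.71 and 2.20 with a median of 1.58, and horizontal levels between 0.76 and 2.37 with a median of 1.1. The horizontal trend did not pass (adjusted p = 0.303), except without fraction 6 (0.0478). The coronal trend did not pass with this probe (adjusted p = 0.347) and passed with the second Peg3 probe (0.00955), which correlated with the first at 0.895.

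Usp29 is the neighbour whose start lies in the same window as that of Peg3, and it is itself transcribed from the paternal copy. It was not among the 10 genes. Of 12294 symbols with a probe well above background on all 28 arrays, Usp29 had the profile most like Peg3, with r = 0.914 over 28 fractions, and r = 0.909, 0.892 and 0.922 in the coronal, horizontal and sagittal series. Its sagittal trend passed with a fitted range of 3.00 (adjusted p = 0.0132) and its horizontal trend with 1.72 (adjusted p = 0.0451), while its coronal trend did not pass (range 1.15, adjusted p = 0.11). The sagittal call was lost under scaling by the array median and without fraction 1, and the horizontal one without fraction 3 or 4. The fractions of a series come from 1 brain and neighbours share tissue, so these correlations are descriptions of 3 brains.

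**Figure D2:**
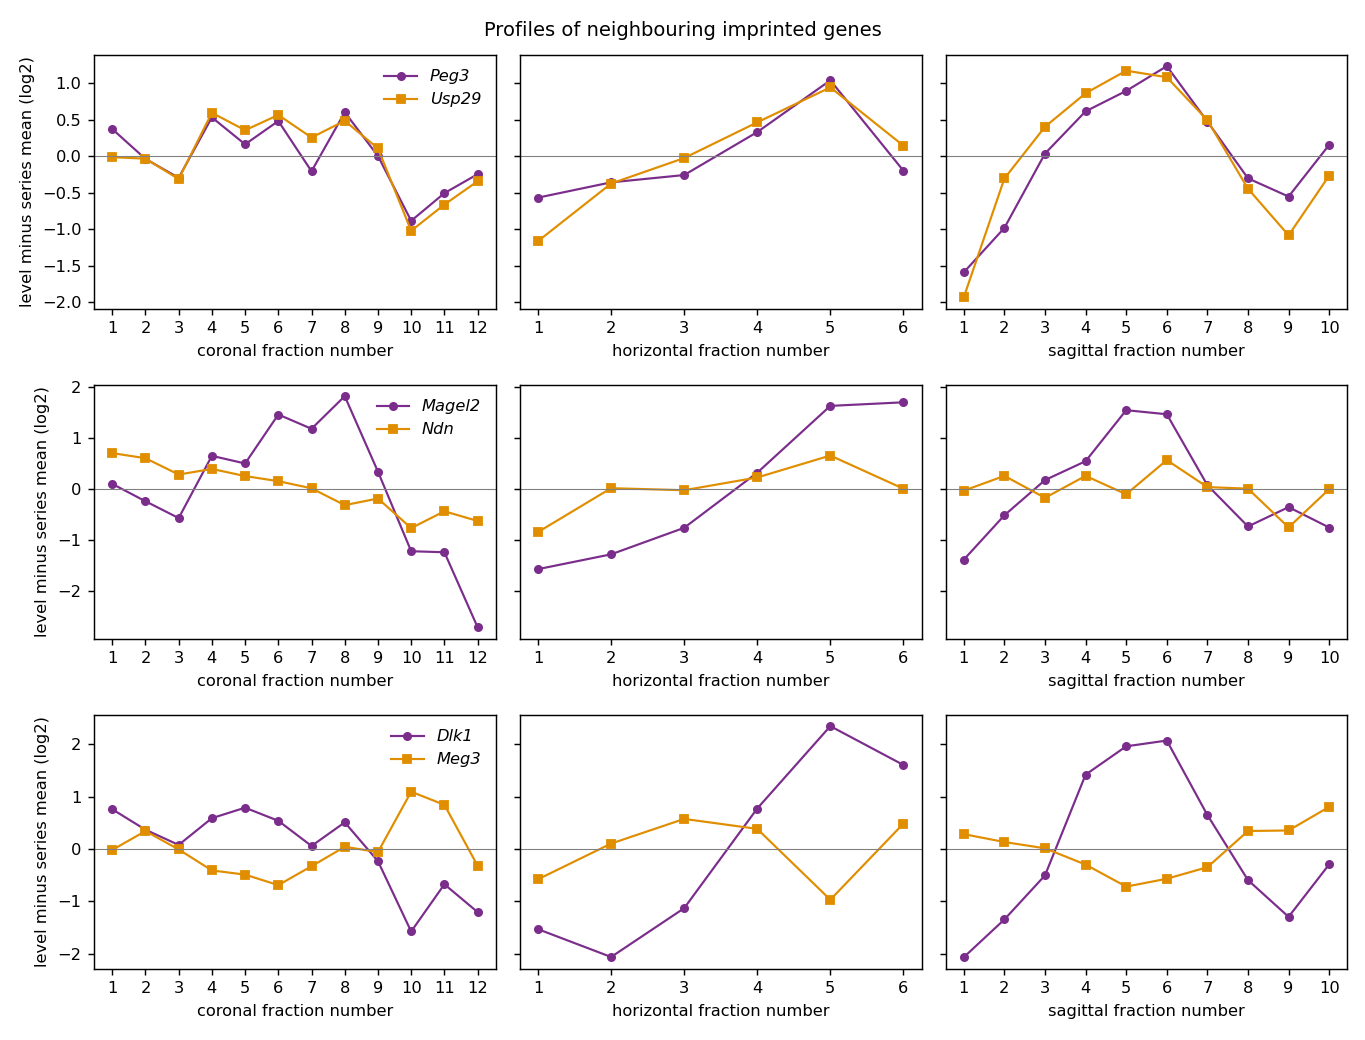
Profiles of 3 pairs of neighbouring genes against fraction number, as level minus the mean of its series (log2), with 1 array per point. Peg3 and Usp29 follow each other in each series (r = 0.914 over 28 fractions), Magel2 swings further than Ndn, and Dlk1 and Meg3 run in opposite directions in the sagittal series (r = -0.787).

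Nap1l5 encodes a nucleosome assembly protein-like protein and has no introns. Its coronal levels lay between 3.79 in fraction 11 and 5.74 in fraction 4 with a median of 5.22, and the trend passed (adjusted p = 0.00372). Sagittal levels ran from 3.24 to 5.54 with a median of 4.61, highest in fractions 5 and 6, and the trend passed (adjusted p = 0.0141) in each fit with 1 fraction left out other than that without fraction 1 (0.126). It did not pass under scaling by the array median (0.0905, range 2.74, beside 2.18 in the main fit). Nor did it without fractions 1 and 9 together (0.0951, range 1.17) or within fractions 5 to 10 alone (0.555, range 1.5). The coronal trend did not pass with slide as a term (0.251) or within fractions 3 to 10 alone (0.0651). Horizontal levels lay between 4.36 and 5.70 with a median of 4.82, and that trend did not pass (adjusted p = 0.109) except with normexp correction (0.0432). Levels were thus low at the olfactory end of the coronal series and at the sides of the sagittal series. The mean of 7 myelin genes was low there too, at -1.88 in coronal fraction 12 and -3.02 in sagittal fraction 1, each relative to the mean of its series. Its correlation with Nap1l5 was 0.787 over 28 fractions (0.83 coronally, 0.633 horizontally and 0.838 sagittally), and coronally it was 0.899 with Ndn and 0.872 with Dlk1. The mean of 7 pan-neuronal genes was also low there, at -0.39 in coronal fraction 11 and -0.41 in sagittal fraction 1, and its correlation with Nap1l5 was 0.728 over 28 fractions, 0.765 coronally, -0.0233 horizontally and 0.912 sagittally. All 7 genes of each list were well above background in every fraction, and their part in these profiles was not tested. The second Nap1l5 probe, at a correlation of 0.947, passed in the same series (adjusted p = 0.0173 and 0.0304).

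Nnat encodes neuronatin, a small proteolipid of the endoplasmic reticulum linked to calcium handling. Its horizontal levels were 2.61, 2.81, 3.50, 3.90, 4.05 and 4.62 in fractions 1 to 6. Each fraction was above the one dorsal to it, and the trend passed (adjusted p = 0.0209). The call held in 2 of the 6 fits with a fraction left out and was lost without fraction 1, 3, 4 or 6 (0.0298 to 0.0719 over the 6 fits) and with 1 spline degree of freedom fewer (0.078). Coronal levels lay between 2.70 in fraction 3 and 5.10 in fraction 11 with a median of 4.08, and sagittal levels between 3.31 and 4.62 with a median of 3.98. The coronal and sagittal trends did not pass (adjusted p = 0.125 and 0.158). The coronal one passed without fraction 1 (0.0094, range 2.52) and within fractions 3 to 10 alone (0.0197), and the sagittal one without fraction 9 (0.0228) or fraction 10 (0.0447).

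Peg10, derived from a retrotransposon and needed in the placenta, was near background. In the coronal series the lowest level was -5.55, the median -4.64 and the highest -3.33, in the horizontal series -5.80, -4.69 and -3.34, and in the sagittal series -7.17, -4.21 and -2.37. Fractions that were not well above background give only a limit, so the spans are lower bounds, of at least 2.72-fold coronally, 2.49-fold horizontally and 6.45-fold sagittally, with the highest levels in fractions 8, 5 and 5. No Peg10 trend passed with this probe (adjusted p = 0.175, 0.0883 and 0.276), while the second probe, well above background on 9 arrays and correlating at 0.611, passed coronally (0.0151) and horizontally (0.0169). With the first probe the horizontal trend passed under scaling by the array median (0.0216) and without fraction 6 (0.0478), and the coronal trend without fraction 12 (0.0228).

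Cdkn1c encodes p57, an inhibitor of cyclin-dependent kinases that stops cell division. Its coronal levels lay between 1.58 and 2.77 with a median of 2.07, its horizontal levels between 2.04 and 2.47 with a median of 2.22, and its sagittal levels between 1.45 and 2.92 with a median of 2.26. None of these trends passed (adjusted p = 0.0661, 0.237 and 0.481). The coronal trend passed under scaling by the array median (0.0187), with normexp correction (0.018), with 1 spline degree of freedom fewer (0.0331), with the filter for probes well above background in every fraction (0.037) and without fraction 10 (0.0436). The horizontal span of 0.43 log2, or 1.35-fold, was the smallest observed for any of the 10 genes in any series.

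The hypothalamus is a midline structure, so the 2 middle fractions of the sagittal series were compared with the other 8. No gene passed at the adjusted threshold in limma, and 0% of all 32364 tested probes did (adjusted p = 0.687 for each of Peg3, Peg10, Magel2, Dlk1, Meg3 and Nap1l5). Without adjustment 6 of the 10 genes had p under 0.05, 5 of them, Peg10 included, higher at the midline, where 2.28% of all probes were, and 1 lower, where 3.42% were. This count of 6 was 2 without fraction 5, 3 without fraction 6 and 4 with slide as a term. The share of all probes at this level, 5.7% in the main fit, was 1.3%, 3.38% and 5.13% in those fits. Magel2 differed by 1.87 (SE 0.43), with midline levels of 0.74 and 0.82 against -2.11 to -0.18 in the other fractions. For Dlk1 the difference was 2.51 (SE 0.74), with 3.29 and 3.40 against -0.73 to 2.75. Both midline fractions of these 2 genes were thus above the highest of the others.

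Among the remaining genes, the midline difference was 1.34 (SE 0.51) for Peg3 and 1.11 (SE 0.42) for Nap1l5, and for these too both midline fractions were above the other 8. That separation was measured for 4 of the 10 genes, and seen in the signals of 5.62% of all tested probes. For Peg10 the fitted difference of 1.95 (SE 0.80) rests on 5 other fractions that were not well above background. With those set to the lowest measurable level of their arrays, or to their own level where higher, the difference was at least 0.88, and the limits of fractions 9 and 10 (-3.03 and -3.35) lie above the level in midline fraction 6 (-3.68), so its separation was not measured. Meg3 was 0.80 lower (SE 0.29), with both midline fractions below the other 8, as in 7.35% of all probes. Ndn (0.28), Cdkn1c (0.19), Nnat (-0.09) and Snrpn (-0.17) had overlapping groups. The sign of the last 2 turned under another scaling or without fraction 5, and that of Ndn without fraction 6. Scaling by the array median moved the median midline difference of all probes from -0.07 to 0.30, and the median of the 10 genes was 0.70 under the scaling used.

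When the distance of a fraction from the middle was used as a linear term in place of the contrast, 5 of the 10 genes passed. The values are given for all 10 fractions and the main scaling only. The sagittal spline calls of the same 5 genes were all lost under scaling by the array median, without fraction 1 and without fractions 1 and 9 together. Magel2 was 0.59 log2 higher per fraction nearer the middle (SE 0.09, adjusted p = 0.00749), Dlk1 0.87 (SE 0.14, 0.00805), Nap1l5 0.42 (SE 0.08, 0.0106) and Peg3 0.49 (SE 0.11, 0.0144). This term was positive and past the threshold for 7.72% of all probes. Meg3 changed by -0.29 per fraction (SE 0.06, adjusted p = 0.0106), in a direction in which 13.1% of all probes passed. Besides the hypothalamus list (2.00 in fraction 5), the lists of serotonin and noradrenaline genes (2.71 in fraction 5), hindbrain genes (2.53 in fraction 5), olfactory bulb genes (1.68 in fraction 6), midbrain dopamine genes (1.5 in fraction 6) and thalamus genes (0.95 in fraction 5) had their sagittal maximum in these fractions. Their part in the result was not tested.

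**Figure D3:**
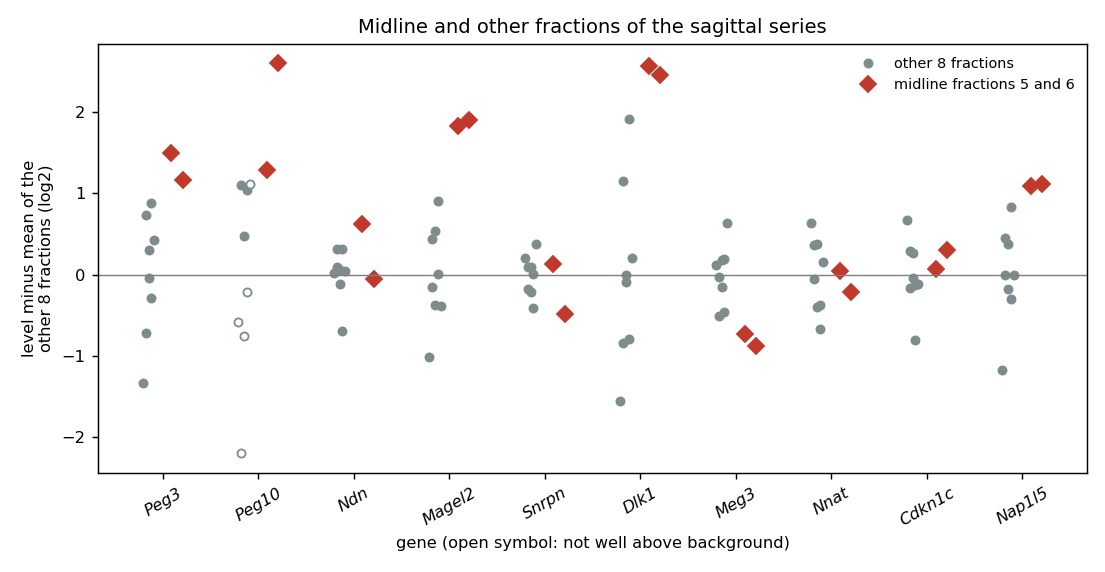
Sagittal levels of the 10 genes as log2 differences from the mean of the 8 fractions outside the midline (vertical axis). Diamonds are midline fractions 5 and 6, circles are the other fractions, and open symbols were not well above background. Both diamonds lie above all circles for Peg3, Magel2, Dlk1 and Nap1l5 and below them for Meg3, and 5 circles of Peg10 are open.

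The hypothalamic fraction of each brain was the one in which the mean of 12 tested hypothalamus genes, out of 15 listed, was highest. These were coronal fraction 7, horizontal fraction 6 and sagittal fraction 5, where the mean lay 3.23, 3.28 and 2.00 log2 above the mean of its series. The level of each gene there was set against the median of the other fractions of the same brain. The fractions were chosen on these arrays by other genes, so what follows is a description over 3 brains with no test.

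Magel2 lay 1.08, 2.46 and 1.90 log2 above that median in the coronal, horizontal and sagittal brain, a mean of 1.81 ± 0.69 (SD, n = 3). It was the only one of the 10 genes measured over 1 log2 in all 3 brains, as were 0.142% of all tested probes. The coronal value was close to this limit. It was 0.97 under scaling by the array median and 0.95 with normexp background correction, which put the count at 0, and coronal fraction 8, next to the chosen one, held the highest Magel2 level. The other 2 brains kept Magel2 at or above 1.5 log2 under the settings tried. The correlation of Magel2 with the hypothalamus list was 0.465 coronally, 0.771 horizontally and 0.701 sagittally. Other lists correlated with it more closely in some brains. Coronally these were the pan-neuronal (0.717), myelin (0.696) and striatum (0.489) lists. Horizontally it was 0.928 with the hindbrain, 0.838 with the midbrain dopamine and 0.828 with the serotonin and noradrenaline list, and sagittally 0.834, 0.834 and 0.803, beside 0.797 with the thalamus and 0.792 with the pan-neuronal list. The choroid plexus list had its second highest coronal mean in fraction 7 (1.76), and stood at -0.47 and 0.76 in the horizontal and sagittal hypothalamic fractions. Some lists ran the other way. The correlation of Magel2 with the meninges list was -0.82, -0.264 and -0.514 in the coronal, horizontal and sagittal series. With the olfactory bulb list it was -0.813, -0.15 and 0.604, and with the cerebral cortex list 0.417, -0.964 and -0.576. The meninges mean was highest in coronal fraction 12, horizontal fraction 1 and sagittal fraction 1, where Magel2 was lowest. The part of these lists in the Magel2 values was not tested.

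Dlk1 lay 2.73 and 2.45 above the median in the horizontal and sagittal brains and -0.31 from it in the coronal brain, a mean of 1.62 ± 1.68 (SD, n = 3). In the coronal series Dlk1 was 2.82 in fraction 5 and 2.79 in fraction 1. Its correlation with the hypothalamus list was -0.0936 coronally, 0.724 horizontally and 0.81 sagittally. With the midbrain dopamine list it was 0.204, 0.866 and 0.973, with the hindbrain list 0.417, 0.982 and 0.918, and with the list of serotonin and noradrenaline genes 0.525, 0.892 and 0.855. Peg10 lay 0.69, 0.74 and 2.12 above the median, but with the fractions near background set to the lowest measurable level of their arrays the difference was at least 0.09 in the coronal and 1.48 in the sagittal brain, and the horizontal one had no bound, since its hypothalamic fraction was itself not well above background. For Nap1l5 the values were 0.11, 0.67 and 1.13, a mean of 0.64 ± 0.51. Dlk1 therefore exceeded 1 log2 in 2 of the 3 brains and Nap1l5 in 1, as did Nnat (1.12 in the horizontal brain). Peg10 did so in the sagittal brain, but in none with normexp correction (0.12, 0.50 and 0.67).

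The remaining genes had smaller or negative means. Cdkn1c lay 0.16, 0.38 and 0.34 above the median, a mean of 0.30 ± 0.12, which turned to -0.05 under scaling by the array median. Nnat gave 0.10, 1.12 and -0.25, and Peg3 gave -0.22, 0.07 and 0.86. Ndn gave -0.14, -0.01 and -0.11, a mean of -0.09 ± 0.07 that turned to 0.07 when the 2 highest fractions of the hypothalamus list were used. Snrpn gave 0.12, -0.51 and -0.58 and Meg3 -0.30, 0.38 and -0.85. The hypothalamic fraction was measured above the median in all 3 brains for 3 of the 10 genes (Magel2, Cdkn1c and Nap1l5). The signal of Peg10 was too, but horizontally this was not measured, and with that gene the count of 4 stands beside 7.75% of all probes. Under scaling by the array median this held for 1 gene, Magel2, and 2.88% of all probes. The 3 genes of the Prader-Willi cluster gave means of 1.81, -0.09 and -0.32.

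Neighbours were also compared within brains. Magel2 exceeded Ndn in this difference by 1.22, 2.46 and 2.01 log2 in the 3 brains, a mean of 1.90 ± 0.63 (SD, n = 3). Dlk1 exceeded Meg3 by -0.01, 2.34 and 3.31, a mean of 1.88 ± 1.70. For Peg3 and Usp29 the difference was -0.49, -0.10 and -0.58. An exact two-sided sign test over 3 brains cannot give a p under 0.25. No other test of these differences was run, and they are given as a description of 3 brains.

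Counted by their highest fraction, 0 of the 10 genes peaked in the coronal hypothalamic fraction (3.36% of all probes did), 3 in the horizontal one (30.5%) and 3 in the sagittal one (11.8%). The horizontal genes were Magel2, Nnat and Cdkn1c, and the sagittal ones were Peg10, Magel2 and Nap1l5. The horizontal share is near that of all probes. Under scaling by the array median the horizontal count was 0, beside 10.6% of all probes, and that scaling moved the median hypothalamic difference of all probes from -0.01 to -0.28. The mean of the 10 genes' differences had a median of 0.31 over the genes with the scaling used, beside -0.01 over all probes.

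By their mean, pituitary transcripts were highest in the hypothalamic fraction of the coronal and horizontal brains, but not of the sagittal brain. Cga, which encodes the shared alpha subunit of the pituitary glycoprotein hormones, was well above background in all 3 hypothalamic fractions, at -0.41 in the coronal, 1.53 in the horizontal and -1.27 in the sagittal one. Elsewhere it was so only in coronal fraction 5 (-3.00). The 4 tested genes of a pituitary list of 9 had their highest mean in coronal fraction 7 (1.86) and horizontal fraction 6 (2.76), where 3 and 6 of the 9 genes were well above background. In sagittal fraction 5 the pituitary mean was 0.58, with 2 of the 9 genes well above background, and it was higher in fraction 9 (0.81). The growth hormone gene Gh (-2.14) and the prolactin gene Prl (0.83) were well above background in horizontal fraction 6, and neither was so in coronal fraction 7 or sagittal fraction 5. Over the list, 0 to 3 genes were well above background in coronal, 1 to 6 in horizontal and 0 to 3 in sagittal fractions. The correlation of the pituitary list with Magel2 was 0.255 over 28 fractions, and 0.299, 0.433 and -0.12 in the coronal, horizontal and sagittal series. With Dlk1 it was 0.0704 over 28 fractions, and -0.0676, 0.315 and -0.205 in the same order. Its part in the hypothalamic values was not tested.

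**Figure D4:**
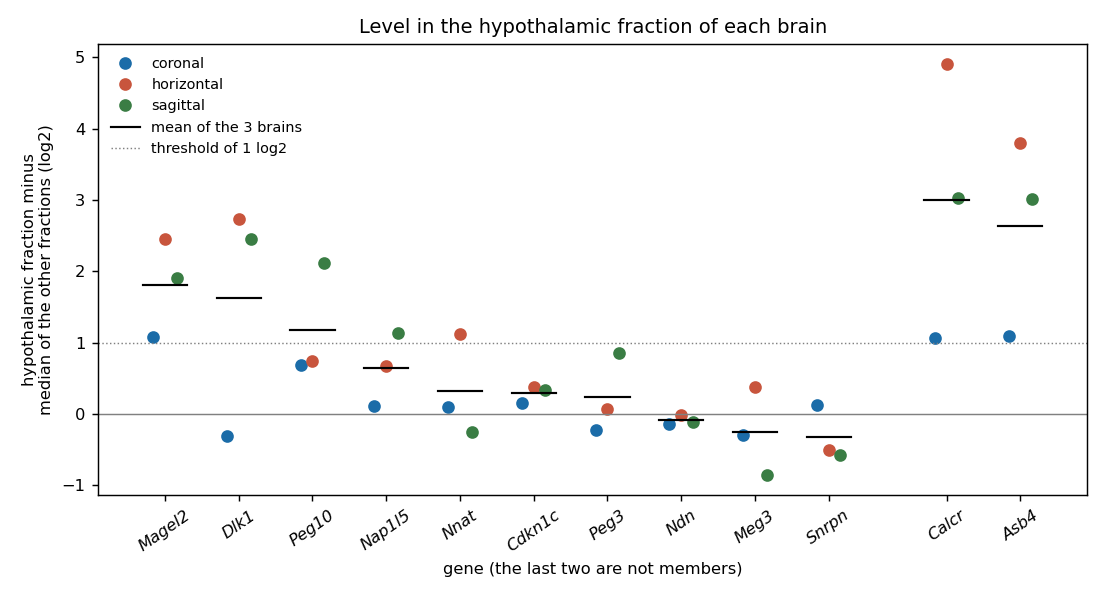
Level in the hypothalamic fraction minus the median of the other fractions of the same brain (vertical axis, log2) for the 10 genes and, at the right, Calcr and Asb4. Each point is 1 brain, bars are means of 3 brains, and the dotted line is 1 log2. All 3 points of Magel2 lie above the dotted line, and points of Peg10, Calcr and Asb4 rest in part on levels not well above background.

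The 10 profiles were then compared with each other, as Pearson correlations over 28 fractions with each series set to a mean of 0. Peg3 and Dlk1 were the most alike (r = 0.863), followed by Dlk1 and Nap1l5 (0.846), Magel2 and Nap1l5 (0.832) and Magel2 and Dlk1 (0.825). Meg3 had negative correlations with these 4 genes, from -0.448 with Magel2 to -0.595 with Nap1l5. The correlations of Peg10, such as 0.817 with Peg3, rest on signals that were well above background on 10 of the 28 arrays, so its place among the profiles was not measured, and its own second probe correlated with it at 0.611. Snrpn, Nnat and Cdkn1c had no correlation over 0.5 with any of the other genes. The values were alike in the 3 series for Peg3 and Dlk1 (0.839, 0.798 and 0.958) and not for Magel2 and Nnat (-0.211, 0.944 and -0.58).

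**Figure D5:**
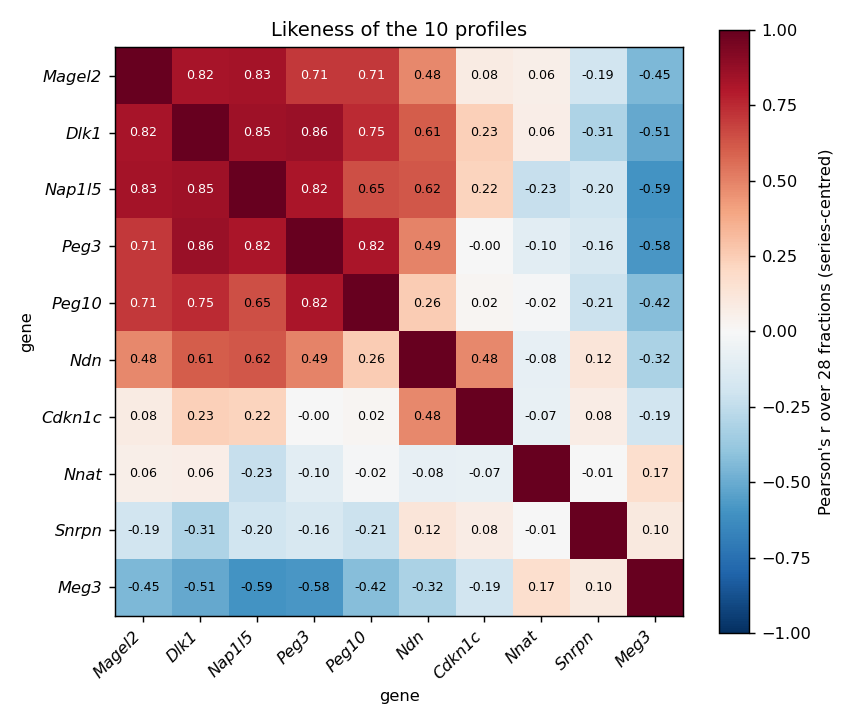
Pearson's r between the profiles of the 10 genes over 28 fractions, each series set to a mean of 0. Magel2, Dlk1, Nap1l5 and Peg3 correlate with each other, from 0.707 to 0.863, and negatively with Meg3, while the values of Peg10 rest mostly on levels not well above background.

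Beyond the list, the symbols with the most similar profiles were searched among 12294 with a probe well above background on all 28 arrays. For Magel2 these were Dgkk, a diacylglycerol kinase gene (r = 0.917), the zinc-finger gene Zfp92 (0.903) and the serotonin receptor gene Htr2c (0.898). Nap1l5 was nearest to Rab9b (0.959), Arhgap12 (0.949) and Ankrd34b (0.948), and 97 symbols exceeded 0.85 with it. Dlk1 was nearest to B630019K06Rik (0.926), Lhfpl5 (0.91) and Susd2 (0.905). After Usp29, Peg3 was nearest to A930017M01Rik (0.914) and Disp2 (0.904).

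Snrpn was nearest to the proton pump subunit gene Atp6v1g2 (0.933), Abhd12 (0.883) and Actr1b (0.879), and Ndn to Poglut1 (0.915), Fbxw17 (0.915) and Pigk (0.893). For Nnat they were Gstm6 (0.882), Cpne7 (0.808) and Tnfrsf1a (0.80). Meg3 (Snhg1 at 0.824, Igflr1 at 0.817 and Cfp at 0.814) and Cdkn1c (Als2cl at 0.797, Btd at 0.795 and Smox at 0.792) had no symbol over 0.85. Likeness over fractions that share brains, slides and neighbouring tissue says nothing of a shared control.

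A list of 40 further imprinted genes, of which 32 were tested, set the 10 in context. Of the 32, 12 passed along the coronal, 3 along the horizontal and 6 along the sagittal series, and 0 at the midline in limma (0% of all probes, as above). For the 3 series these counts stand beside 33.7%, 15.8% and 14.7% of all probes, to which they are close. Their median fitted ranges of 0.98, 0.82 and 1.16 log2 were near the 0.90, 0.74 and 1.06 of all tested probes. Dio3, the deiodinase gene at the end of the Dlk1-Meg3 cluster, passed in all 3 series with fitted ranges of 3.79, 2.82 and 3.37 (adjusted p = 0.0273, 0.0232 and 0.0213). The coronal and sagittal ranges are not exact, since coronal fractions 1, 2, 3 and 12 and sagittal fraction 5 were not well above background. The coronal call was lost with slide as a term and the horizontal one without fraction 3 or 4. Under scaling by the array median and without fraction 1 the sagittal call was lost. The Dio3 sagittal level was lowest in fraction 5 (-4.98, not well above background) and highest in fraction 1 (-1.49), the opposite of Dlk1. Its signal cleared background on 23 arrays.

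Calcr, the calcitonin receptor gene, and Asb4, a gene of an ankyrin-repeat protein of hypothalamic neurons, are maternally transcribed neighbours of Peg10. They passed along the coronal series (fitted ranges 5.00 and 3.14, adjusted p = 0.014 and 0.0453), and both calls were lost with slide as a term. These ranges are not exact, since Calcr was not well above background in coronal fractions 10, 11 and 12 and Asb4 in fractions 10 and 11. In the hypothalamic fractions Calcr lay 1.07 log2 above the median of the other fractions in the coronal and 3.03 in the sagittal brain. Horizontally it lay at least 2.75 above (6.74-fold), since that median was not well above background. Asb4 lay 1.1 above the median coronally, at least 3.53 horizontally (11.5-fold) and 3.02 sagittally. They were the 2 of the 32 genes over 1 log2 in all 3 brains, as were 0.142% of all tested probes. Both lost that in the coronal brain under scaling by the array median (0.91 and 0.94) and with normexp correction (0.68 and 0.81). The shares of all probes were then 0.105% and 0.0309%. Calcr also lost it with quantile normalization (0.96). With normexp the horizontal values of Calcr and Asb4 were 1.77 and 2.05. Calcr was well above background on 18 arrays and Asb4 on 22, so their low levels are near background. In the coronal series both were highest in fraction 8 (-0.40 and -0.11), as was Magel2.

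Around Peg3, the antisense transcript Peg3os passed along the sagittal series (fitted range 3.42, adjusted p = 0.0396) although it was well above background on only 9 arrays, so that the range is not exact. This call was lost under scaling by the array median and without fraction 1. The highest Peg3os level was in fraction 5 (-2.35), whereas that of Peg3 was in fraction 6. Whether its probe also takes signal from Peg3 transcripts was not tested. Inpp5f, an inositol phosphatase gene, passed along the horizontal series alone (fitted range 1.2, adjusted p = 0.0277), and this call was lost without fraction 3 or 4.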

How the data were processed

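Total RNA of 28 brain fractions was labelled with Cy3, and each fraction was hybridised to 1 Agilent array in 1 colour. The intensity values deposited by the authors came, per the file headers, from Feature Extraction 10.5.1.1, which subtracts background from each spot. A table of log2 values for 44721 probes, also deposited by the authors, served as an alternative. They equalled the levels used here within 0.01 log2, after an offset per array, for all but 1957 of 1252084 values, with a largest deviation of 0.492. Here outlier spots were left out (108 to 176 per array), spots of a probe were averaged, and processed signals were put on a log2 scale relative to the 75th percentile of their array. The number of arrays limits the precision.

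A probe was well above background on an array where a share of 0.5 or more of its spots were flagged so. Tested probes (32364) were so in at least 1 fraction of each series. Accessions were matched to RefSeq symbols of GRCm38.p6, which named 27235 of 55681 probes (48.9%). The grid of the array is annotated on another build, and its coordinates were not used.

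Position was tested with limma 3.58.1 in R 4.3.3, by fitting natural cubic splines (F-test) with 3 (coronal, sagittal) or 2 (horizontal) degrees of freedom, and sagittal fractions 5 and 6 were compared with the other 8. P-values were adjusted by Benjamini-Hochberg over all tested probes, with a threshold of 0.05. The residual around the curve is the only error, so p-values measure the spread within 1 brain and say nothing of other mice. The scripts were tested on simulated data.

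The genes named are the 10 genes, the 3 symbols nearest to each over the fractions (not given for Peg10, whose signal was near background), and the further imprinted genes with the largest fitted ranges past the threshold (3 per series). Usp29, Calcr and Asb4 are named also for the comparisons made with them, chosen after their values were seen, as were the motifs searched. The genes, lists and tests were chosen with earlier results of these data known. Alternatives were other scalings (array median, quantile), normexp with an offset of 50 on the median signal (the mean signal was not used here), other probes, filters, spline sizes, slide terms and each fraction left out.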

Additional observations from a re-analysis of the deposited data

How the results depend on the processing

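No paired analysis was possible because each fraction was measured on 1 array of 1 mouse, so the fraction numbers of the 3 series mark unrelated positions. Over the alternatives tried, 121 values of counts and medians kept their direction and size and 47 did not, and 747 single-gene values kept their direction and side of the threshold, or stayed within the spread, and 99 did not. When arrays were scaled by their median, 6 genes passed horizontally and 0 sagittally (59.8% and 1.04% of all probes). With that scaling 0 peaked in the horizontal hypothalamic fraction (10.6% of all probes) and 0 exceeded 1 log2 in all 3 brains (0.105%). The median correlation of the 10 genes with the hypothalamus list was then 0.0407 horizontally in place of 0.564. With normexp correction 5 passed horizontally (28% of all probes) and 0 exceeded 1 log2 in all 3 brains (0.0309%). Quantile normalization turned the median coronal correlation from -0.0205 to 0.0131. A spline with 1 degree of freedom fewer left 0 horizontal calls. Slide as a term left 0 coronal and 3 sagittal calls (0.745% and 7.79% of all probes), fractions 3 to 10 alone 2 coronal calls (12.9%), and fractions 5 to 10 alone, with a smaller spline, 0 sagittal calls (0% of all probes, with 2821 at an unadjusted p under 0.05). Without sagittal fractions 1 and 9, an alternative added after seeing the data, 0 sagittal calls were made (2.9% of all probes). Distance from the middle as a linear term gave 5 calls in place of 0 for the midline. With the 2 highest fractions of the hypothalamus list, 3, 8 and 6 genes peaked there (10.8%, 45.6% and 17.3% of all probes) and 2 exceeded 1 log2 in all 3 brains (0.176%). Leaving out each fraction gave 4 to 6 coronal, 0 to 4 horizontal, 0 to 6 sagittal and 0 midline calls. Over these fits the share of all probes past the threshold ran from 24.5% to 34.4% coronally, 0% to 17.8% horizontally and 0% to 47.1% sagittally. At the midline it was at most 0.0124%. The 4 horizontal calls were made without fraction 6, where 4.13% of all probes passed. Those of Peg3, Peg10 and Dlk1 lay just under the threshold (adjusted p = 0.0478 each, limma F-test). Peg10 was well above background in only 2 horizontal fractions. The cause of these shifts was not tested.

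Single-gene values that turned sign were the midline differences of Snrpn (0.20 with the array median, 0.10 with quantile normalization, -0.48 to 0.14 with 1 fraction left out), Nnat (0.28 with the array median, 0.03 with normexp, -0.22 to 0.03 with 1 fraction left out) and Ndn (-0.05 to 0.62 with 1 fraction left out), and the mean hypothalamic differences of Cdkn1c (-0.05 with the array median) and Ndn (0.07 with the 2 highest fractions). For the 32 further imprinted genes, whose alternatives were also added after seeing the data, a slide term left 0 coronal calls, the horizontal count was 21 with the array median, 5 with quantile normalization and 12 with normexp (59.8%, 21.2% and 28% of all probes), and the sagittal count was 0 with the array median and 15 with normexp (1.04% and 44.2%). Leaving out each fraction gave 8 to 14 coronal, 0 to 4 horizontal and 0 to 18 sagittal calls. The shares of all probes in these fits were 24.5% to 34.4%, 0% to 17.8% and 0% to 47.1%. Low signal limits Peg10, Calcr, Asb4, Dio3 and Peg3os, whose levels in many fractions were not well above background.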
